A study of Mus musculus with 12 samples.

Results

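In the cerebellum sample of this series, probe sets of 10 genes best known from the kidney read higher than in cortex: Kap, Miox, Umod, Slc34a1, Fxyd2, Napsa, Hao2, Klk1, Klk1b5 and Acsm2. They were taken as every probe set of the array (a group of short oligonucleotides that reports on a single transcript) annotated with one of these symbols alone, which gave 12 probe sets, with 2 each for Klk1 and Klk1b5, out of 12422 tested that stood for 8251 genes. The genes were chosen from the measured differences between cerebellum and cortex, at both procedures described next. Those differences are therefore given as a description, and no p-value of them is reported for the 10 genes. A count passing the threshold is given once, beside the share of all probe sets, and nothing is read from it.

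The samples were taken from the cerebellum, cortex and liver of a single adult NMR-1 mouse (1 animal) and hybridized to MG_U74Av2 arrays. RNA of each tissue was carried through 3 linear amplifications starting from 1 ng (3X, 3 arrays per tissue) or through the standard Affymetrix protocol starting from 5 µg (1X, 1 array per tissue). Amount, kit and number of amplifications differ together between 3X and 1X. The 3X arrays of a tissue are technical replicates of the same RNA, so that SDs and p-values describe the spread between arrays and not between mice. All values are log2 signals made by the authors with RMA (background correction, quantile normalization and summary over the probes of a set), whose medians lay between 3.45 and 3.48 on the 12 arrays. RMA gives no detection call, so a signal near or below the median may be background, and a difference against it is no ratio of RNA. In bulk tissue, fewer cells of a type and less RNA per cell cannot be told apart.

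The tissue labels were borne out by the brain markers. Of 13 measured cerebellar genes, 8 were higher in cerebellum than in cortex at 3X and none lower (limma, adjusted p under 0.05), with Gabra6, a GABA receptor subunit of granule cells, at 2.33 ± 0.15 (SE; adjusted p = 3.19e-05). Of 10 cortical genes, 5 were lower and none higher, with the postsynaptic protein neurogranin (Nrgn) at -1.77 ± 0.13 (adjusted p = 7.75e-05). Between cerebellum and cortex 132 probe sets were called at 3X, and 250 without liver replicate 3, which enters the shared estimate of the spread.

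As background, the kidney filters blood in its glomeruli and recovers most of the filtrate along the tubule. The proximal tubule takes back phosphate, glucose, amino acids and proteins at a brush border and is rich in mitochondrial and peroxisomal enzymes. The thick ascending limb and the distal tubule then adjust salt. Kap, Miox, Slc34a1, Hao2, Napsa and Acsm2 are known from the proximal tubule, Umod from the thick ascending limb, and Fxyd2 and Klk1 from the distal parts.

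Position in the genome was not used to choose the genes. Of the 10 genes 5 lie on chromosome 7 (Umod, Acsm2, Napsa, Klk1 and Klk1b5), against 7.94% of the 8237 measured genes with a known chromosome. These include neighbours. Klk1b5 ends 4656 bases before Klk1 starts, and Umod ends 75077 bases before Acsm2 starts (RefSeq annotation of GRCm38.p6). Klk1 and Klk1b5 are members of a cluster of closely related kallikrein genes. The suffix _f of both Klk1b5 probe sets and of the brighter Klk1 probe set marks probes that can match more than a single transcript. Their signals may include other kallikreins. The dimmer Klk1 probe set carries another suffix, _i, and whether it reads Klk1 alone was not tested.

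The proximal tubule genes come first. Kap encodes the kidney androgen-regulated protein of proximal tubule cells. At 3X its signal was 5.87, 6.13 and 6.03 in cerebellum, against 4.92, 5.15 and 4.83 in cortex and 5.02, 4.81 and 5.06 in liver. All 3 cerebellum arrays lay above all 6 others, with cortex and liver in a common range. At 1X it was 8.66 in cerebellum, 4.92 in cortex and 4.66 in liver, so that the difference between cerebellum and cortex was 1.04 ± 0.11 (SE) at 3X and 3.74 at 1X. The 1X cerebellum signal stood at percentile 98.0 of its array, and the 3X signals between percentiles 86.1 and 88.2.

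Miox encodes myo-inositol oxygenase, which opens the inositol ring in the proximal tubule. Its signals at 3X were 6.06, 5.42 and 5.65 in cerebellum, against 4.79, 5.09 and 4.68 in cortex and 4.93, 5.01 and 4.62 in liver. Cerebellum replicate 2 came within 0.33 of the highest cortex array. At 1X cerebellum had 8.51, with 4.67 in cortex and 4.38 in liver. The difference to cortex was 0.86 ± 0.17 at 3X and 3.83 at 1X, which repeats the pattern of Kap. Among all 12422 probe sets, Miox ranked 3 and Kap 4 by their 1X difference, but 61 and 34 by their 3X difference.

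Napsa, the aspartic protease napsin A of lung and proximal tubule, went the other way. It had 5.68, 5.85 and 6.10 in cerebellum at 3X, against 2.37, 2.61 and 2.35 in cortex and 2.14, 1.96 and 2.19 in liver. The groups were separated by 3.07, the distance from the lowest cerebellum array to the highest of the others. At 1X the signals were 3.70 in cerebellum, 1.89 in cortex and 1.87 in liver. Its difference to cortex was 3.43 ± 0.12 at 3X, rank 1 of all probe sets, and 1.81 at 1X, rank 28. Cortex and liver were below the array median in both procedures, so neither difference measures a ratio of RNA.

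Slc34a1 encodes the sodium-dependent phosphate transporter of the proximal brush border. It measured 3.48, 3.55 and 3.73 in cerebellum at 3X, against 2.52, 2.80 and 2.58 in cortex and 2.62, 2.59 and 2.53 in liver. At 1X it was dim everywhere, with 2.99 in cerebellum, 2.38 in cortex and 2.25 in liver. The cerebellum arrays were again the highest in each procedure, by 0.95 ± 0.10 over cortex at 3X and by 0.61 at 1X. Acsm2, a mitochondrial medium-chain acyl-CoA synthetase, had 3.03, 3.08 and 3.22 in cerebellum at 3X, against 2.32, 2.48 and 2.35 in cortex and 2.43, 2.54 and 2.42 in liver. Its 1X signals of 2.33 in cerebellum, 1.69 in cortex and 1.73 in liver kept this order. All 12 Acsm2 values were below the array median.

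Hao2, a peroxisomal hydroxyacid oxidase, had its highest signal in liver in both procedures, alone among the 10 genes. At 3X it had 2.37, 2.34 and 2.62 in cerebellum, against 0.56, 0.46 and 0.41 in cortex and 3.64, 3.29 and 4.52 in liver. The 3 tissues did not overlap, and the order was liver, cerebellum, cortex. The 1X signals of 1.78 in cerebellum, 0.15 in cortex and 4.19 in liver gave the same order. Liver replicate 3 was the highest of the 3X liver arrays. The difference between cerebellum and cortex, 1.97 ± 0.25 at 3X and 1.63 at 1X, was taken between dim signals, at percentile 0.938 of the 1X cerebellum array and 6.48 to 19.5 of the 3X cerebellum arrays.

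Umod, which encodes the urinary protein uromodulin of the thick ascending limb, changed least between procedures in cerebellum. Cerebellum had 5.99, 6.07 and 6.0 at 3X, against 5.14, 5.00 and 5.27 in cortex and 5.16, 5.07 and 5.16 in liver. Its 1X signals were 5.98 in cerebellum, 5.07 in cortex and 4.98 in liver. The difference to cortex was 0.88 ± 0.09 at 3X and 0.90 at 1X.

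**Figure D1:**
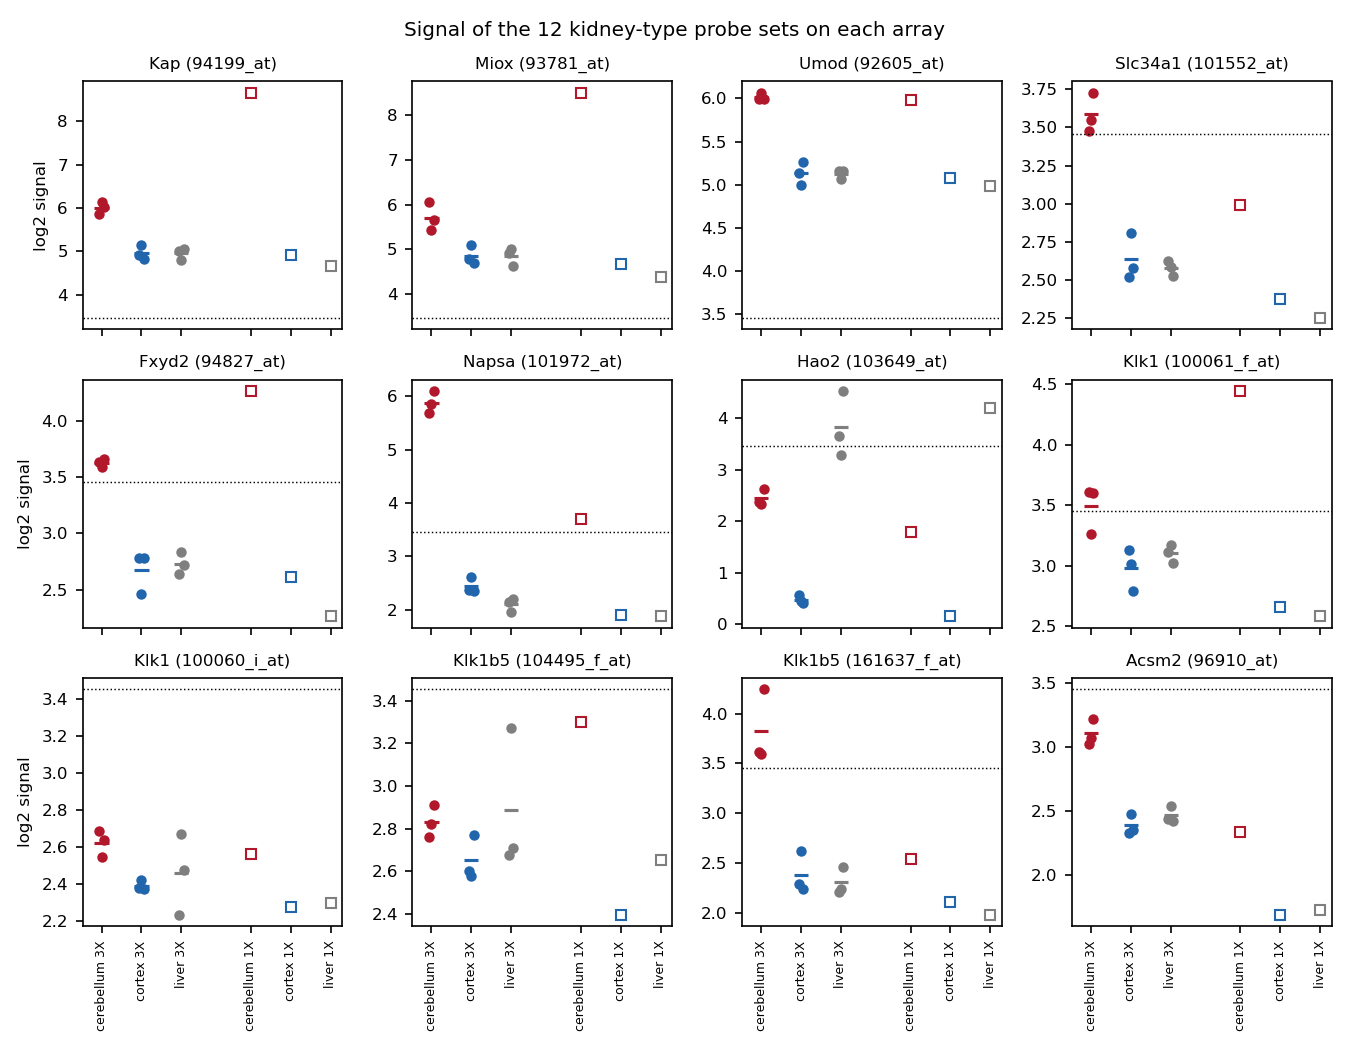
Log2 signal (vertical axis, own scale in each panel) of the 12 probe sets on every array; filled points are the 3X arrays with a bar at their mean, open squares the single 1X array, and the dotted line is the median of the array medians. Kap and Miox stand at 8.66 and 8.51 on the 1X cerebellum array and near 6 at 3X, Napsa is brighter at 3X, and Hao2 is highest in liver.

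Of the genes of the distal nephron, Fxyd2 encodes the gamma subunit that regulates the sodium pump of tubule cells. It had 3.64, 3.59 and 3.66 in cerebellum at 3X, against 2.78, 2.46 and 2.78 in cortex and 2.64, 2.84 and 2.71 in liver. At 1X cerebellum had 4.27, cortex 2.61 and liver 2.26, so the difference to cortex was 0.95 ± 0.10 at 3X and 1.66 at 1X.

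Klk1, the tissue kallikrein that releases kinins in distal tubule and salivary gland, was read by a brighter and a dimmer probe set. The brighter had 3.61, 3.27 and 3.60 in cerebellum at 3X, against 3.13, 3.02 and 2.80 in cortex and 3.12, 3.17 and 3.02 in liver, a separation of only 0.09 between cerebellum and the highest of the others. At 1X it had 4.45 in cerebellum, 2.66 in cortex and 2.58 in liver. The difference to cortex was 0.51 ± 0.12 at 3X and 1.78 at 1X. The dimmer lay between 2.23 and 2.69 on all 12 arrays, and its 3X cerebellum range overlapped that of liver.

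The 2 probe sets of Klk1b5, a related kallikrein, disagreed with each other. The first had 3.62, 3.60 and 4.25 in cerebellum at 3X, against 2.29, 2.62 and 2.24 in cortex and 2.21, 2.24 and 2.46 in liver, and 2.54 in cerebellum at 1X against 2.11 in cortex and 1.98 in liver. The second had 2.76, 2.82 and 2.91 in cerebellum at 3X, against 2.60, 2.58 and 2.77 in cortex and 2.68, 3.27 and 2.71 in liver, so that its groups overlapped. At 1X it had 3.30 in cerebellum, 2.40 in cortex and 2.65 in liver. The difference to cortex was thus 1.44 ± 0.17 at 3X and 0.44 at 1X for the first, and 0.18 ± 0.15 at 3X and 0.90 at 1X for the second.

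Over the 12 probe sets, the median difference between cerebellum and cortex was 0.92 at 3X and 1.26 at 1X, beside -0.01 and -0.03 over all probe sets. At 3X, 11 of the 12 had all cerebellum arrays above all cortex arrays (8.56% of all probe sets), and 9 had them above liver as well (3.13%). The 1X cerebellum array was above both other tissues for 11 of the 12 (24.5% of all), the exception being Hao2, and 6 differed from cortex by at least 1 on the log2 scale (0.829% of all). By the threshold used elsewhere, 9 of the 12 would be called higher in cerebellum than cortex at 3X (0.628% of all, or 1.06% called in either direction). Since these contrasts chose the genes, nothing is read from the counts.

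The procedures ranked the genes differently. For 7 of the 12 probe sets the 1X difference was the larger and for 5 the 3X difference. Kap, Miox, Fxyd2, the brighter Klk1 probe set and the second Klk1b5 probe set had the larger 1X differences in clear steps. Napsa and the first Klk1b5 probe set had the larger 3X differences, so that the probe sets of Klk1b5 went opposite ways. Only 1 array per tissue was made at 1X, so these changes have no replicate check.

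**Figure D2:**
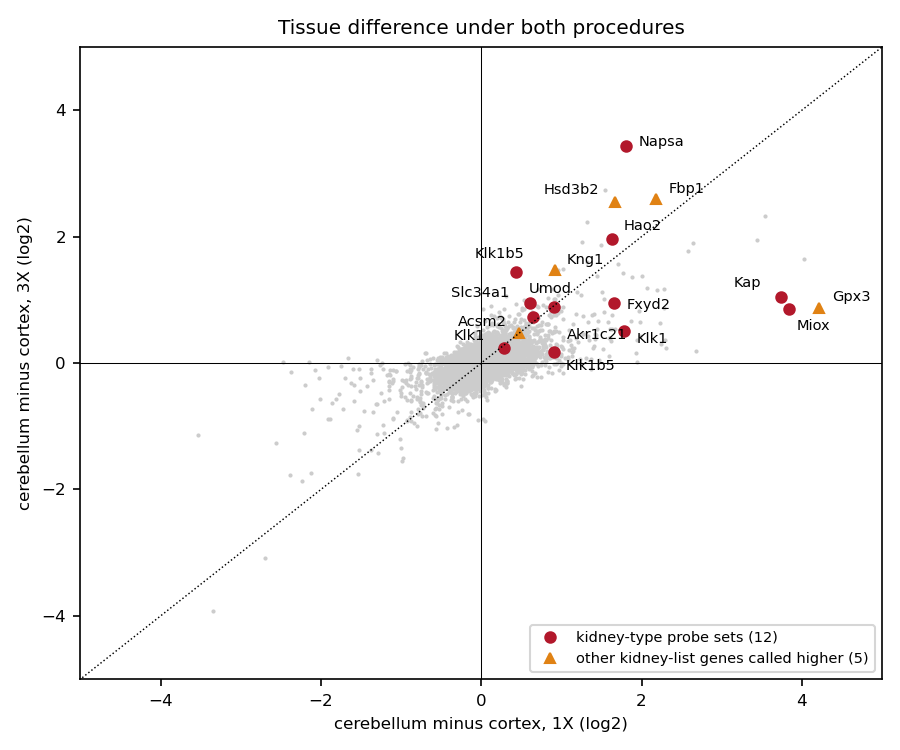
Difference between cerebellum and cortex (log2) at 3X (vertical) against 1X (horizontal) for all 12422 probe sets in grey, the 12 kidney-type probe sets in red and 5 further kidney genes that passed the test in orange; the dotted line marks equal differences. Kap, Miox and Gpx3 lie far to the right with 3X differences near 1, and Napsa lies highest.

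Liver against cortex was a comparison that had not chosen the genes, although it shares the cortex arrays with the one that had. Hao2 was higher in liver by 3.34 ± 0.25 (SE, 3 against 3 arrays at 3X; limma adjusted p = 5.05e-06). It was the only call among the 12 probe sets, where 16.8% of all were called in either direction, 6.64% higher and 10.1% lower in liver. Without the high liver replicate 3 it was still called, at 2.99 (adjusted p = 1.74e-08). The other 11 differed by -0.34 to 0.24, with SEs of 0.09 to 0.17 and adjusted p-values of 0.0860 to 0.999. Napsa was at the low end (-0.34 ± 0.12, adjusted p = 0.0860). The self-test on simulated arrays recovered 46% of changes of 0.5 and 92% of changes of 1 in this comparison. It altered a smaller share of the probe sets than the 16.8% called here, so its rates need not hold for these data. Small differences between liver and cortex may have been missed.

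The change with the procedure was also fitted in the 8 liver and cortex arrays, without the cerebellum. The cortex arrays of both procedures had a part in choosing the genes, so this fit is not independent of the choice. Acsm2 was higher at 3X than at 1X by 0.72 ± 0.08 (SE, 6 3X against 2 1X arrays; limma adjusted p = 0.000948), with cortex rising by 0.70 and liver by 0.74. The brighter Klk1 probe set was higher by 0.42 ± 0.11 (adjusted p = 0.0233), Napsa by 0.39 ± 0.12 (0.0399) and Slc34a1 by 0.29 ± 0.10 (0.0472). These 4 of 12 compare with 34.9% of all probe sets called in either direction, 22.0% higher and 12.9% lower, so that their share is near the background. All probe sets together had a median change of 0.11. After quantile normalization of the arrays only Acsm2 was called (0.48, adjusted p = 0.00429). Napsa lost its call without liver replicate 1 or 3 or any cortex replicate, Slc34a1 without any liver replicate or cortex replicate 2 or 3, with adjusted p-values of 0.0550 to 0.0783. The other 8 probe sets changed by -0.02 to 0.32 and were not called.

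In cerebellum itself the 3X signal differed from the 1X signal by -2.65 for Kap, -2.80 for Miox, -0.95 for the brighter Klk1 probe set, -0.64 for Fxyd2 and -0.47 for the second Klk1b5 probe set. It was higher at 3X by 2.17 for Napsa, 1.28 for the first Klk1b5 probe set, 0.78 for Acsm2, 0.66 for Hao2 and 0.60 for Slc34a1. Umod and the dimmer Klk1 probe set moved by 0.04 and 0.06. In the same probe sets cortex moved by 0.05 to 0.70 and liver by -0.37 to 0.74. The spread of the cerebellum changes was therefore wider than in either other tissue. Cortex was below the array median in all but Kap, Miox and Umod, and liver in all but these and Hao2. Such signals may be background. These changes are descriptions, because the cerebellum arrays had chosen the genes. A fall from 1X to 3X in cerebellum was not particular to these genes. It was also seen in the other genes named below for their gap between cerebellum and the next tissue, except Neurod1. Mbp fell from 12.7 to 9.48 in cerebellum and from 10.8 to 8.12 in cortex. Neurod1 rose from 4.15 to 6.05 and from 2.65 to 4.19.

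**Figure D3:**
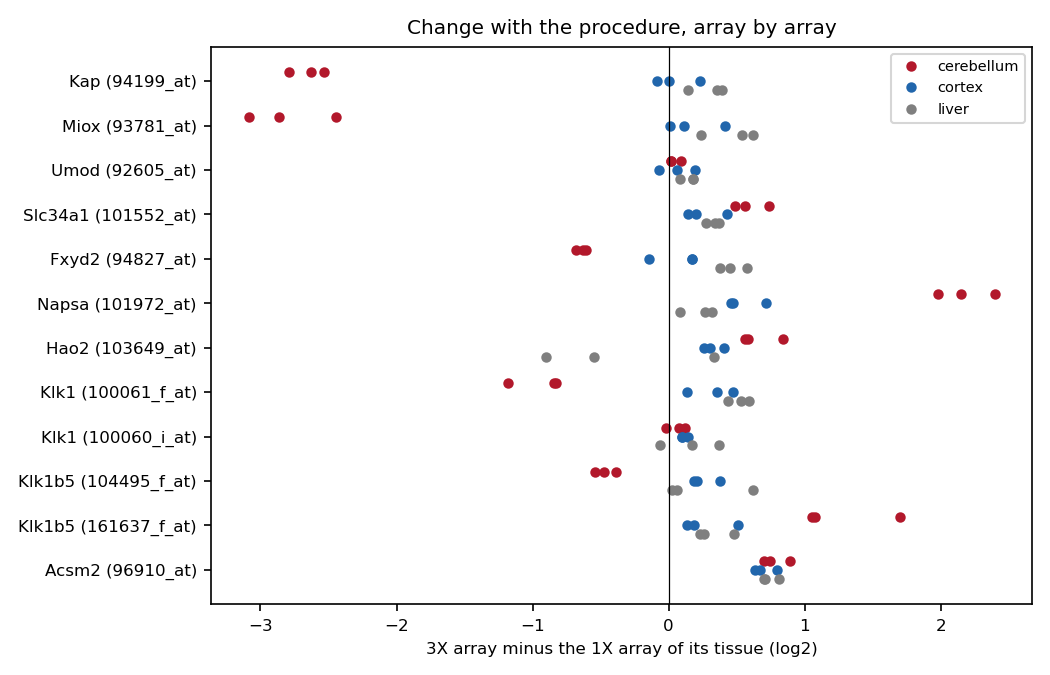
Each 3X array minus the 1X array of its tissue (log2, horizontal) for the 12 probe sets, in cerebellum (red), cortex (blue) and liver (grey). Kap and Miox average -2.65 and -2.80 in cerebellum and 0.05 and 0.18 in cortex, whereas Napsa averages 2.17 in cerebellum.

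Other kidney genes were then counted in 6 lists by nephron segment, all written without the 10 genes but with earlier results of these data known. At 3X, 5 of 90 measured genes were higher in cerebellum than in cortex and none lower (limma adjusted p under 0.05), against 0.628% of all probe sets called higher and 0.435% called lower. All but 1 of the 5 were proximal tubule enzymes, where 4 of 30 genes were called. The median difference of the 90 genes was 0.06 at 3X and 0.08 at 1X, beside -0.01 and -0.03 over all probe sets, and 20 had an unadjusted p under 0.05, beside 8.6% of all probe sets. Between liver and cortex, 17 of the 90 were called higher in liver (6.64% of all probe sets), among them 4 of the 5. Fbp1, Hsd3b2 and Kng1 had been named by earlier results, and without them 2 of 87 were called.

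Gpx3, the plasma glutathione peroxidase that is made mainly in the proximal tubule, resembled Kap and Miox in its much larger 1X difference, but was dim at 3X. At 3X it had 2.72, 2.70 and 2.55 in cerebellum, against 1.75, 2.08 and 1.51 in cortex and 1.66, 1.62 and 1.65 in liver, with no overlap between cerebellum and the others. Its 1X signals were 6.73 in cerebellum, 2.51 in cortex and 1.44 in liver. It was higher in cerebellum than cortex by 0.88 ± 0.13 at 3X (limma adjusted p = 0.00677), while its 1X difference of 4.22 was the largest of all 12422 probe sets.

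Fbp1 of gluconeogenesis and Hsd3b2, a hydroxysteroid dehydrogenase, were ordered like Hao2. Fbp1 had 6.79, 6.90 and 7.50 in cerebellum at 3X, against 4.64, 4.33 and 4.45 in cortex and 10.7, 10.4 and 11.2 in liver. It was higher in cerebellum than cortex by 2.59 ± 0.22 (adjusted p = 0.000313). Hsd3b2 had 3.62, 3.85 and 3.99 in cerebellum, against 1.28, 1.41 and 1.15 in cortex and 4.15, 4.86 and 5.40 in liver. Hsd3b2 was higher in cerebellum than cortex by 2.54 ± 0.25 at 3X (limma adjusted p = 0.000647) and by 1.67 at 1X. Its 3X signals lay at percentiles 0.02 to 0.03 in cortex and 53.8 to 61.4 in cerebellum, so the difference is no ratio of RNA. The tissue order was liver, cerebellum, cortex in both genes, without overlap.

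Kng1, the kinin precursor kininogen that the liver secretes, stood at 4.98, 4.92 and 4.72 in cerebellum at 3X, against 3.41, 3.44 and 3.38 in cortex and 8.43, 7.97 and 8.70 in liver. It was higher in cerebellum than cortex by 1.46 ± 0.16 (adjusted p = 0.00101). Akr1c21, an aldo-keto reductase, was higher by 0.48 ± 0.08 (adjusted p = 0.0174) at dim signals of 2.73 to 2.93 in cerebellum, against 2.31 to 2.43 in cortex and 2.59 to 2.67 in liver. It was also higher in liver than cortex by 0.27 ± 0.08 (limma adjusted p = 0.0452). Its call was lost without cerebellum replicate 2 or 3 or cortex replicate 1 or 3, with adjusted p-values of 0.0823 to 0.0974. The other 4 kept their calls without each 3X array in turn.

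Beside the proximal tubule enzymes, Kng1 was the only call in the kidney lists. None of 29 proximal transporter and brush border genes passed, and none of 6 genes of the loop of Henle. Neither did any of 6 glomerular and vascular genes or of 8 nephron regulators. At an unadjusted p under 0.05 these lists had 5, 2, 0 and 0, in that order. Over all probe sets 1.06% were called in either direction and 8.6% had an unadjusted p under 0.05. At the share called, lists this short would mostly hold no call, so nothing is read from its absence. Of the genes with an unadjusted p under 0.05 in the lists of the loop and of the 11 distal and collecting duct genes, Kcnj1, a potassium channel gene, differed by 0.20 ± 0.09 at 3X (adjusted p = 0.575) and by 0.02 at 1X. Ppp1r1a differed by -0.35 ± 0.13 (adjusted p = 0.412) and by -0.42 at 1X, and the kidney cadherin gene Cdh16 by 0.26 ± 0.11 (adjusted p = 0.556) and by 0.62 at 1X. The salt transporter gene Slc12a1, from the same segment as Umod, differed by 0.06 ± 0.09 at 3X (adjusted p = 0.967) and by 0.48 at 1X. The water channel gene Aqp2 of the collecting duct differed by 0.15 ± 0.11 (adjusted p = 0.848) and by 0.01 at 1X. The median difference of the 29 proximal transporter and brush border genes was 0.005 at 3X and 0.02 at 1X. Of their 5 genes with an unadjusted p under 0.05, Slc26a1 differed by -0.23 ± 0.08 at 3X (adjusted p = 0.422) and by -0.21 at 1X. Pdzk1ip1 differed by 0.51 ± 0.13 (adjusted p = 0.114) and Slc4a4 by 0.51 ± 0.15 (0.256), with 0.93 and 0.70 at 1X. The endocytosis receptors Lrp2 (megalin) and Cubn (cubilin) differed by 0.27 ± 0.12 and 0.33 ± 0.11 at 3X (adjusted p = 0.554 and 0.362). Their 1X differences were 0.99 and 0.56.

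Markers of other tissues were measured beside these genes. Of 21 plasma protein genes secreted by liver, none was called between cerebellum and cortex (3 at an unadjusted p under 0.05), although all 21 were higher in liver than cortex. Their mean signal was 4.09 to 4.12 on the 3X cerebellum arrays, against 4.04 to 4.12 in cortex and 8.58 to 9.42 in liver, and 3.81 in both brain regions at 1X. Albumin (Alb) averaged 3.72 in cerebellum, 3.74 in cortex and 11.1 in liver at 3X. The 21 differences between cerebellum and cortex ran from -0.60 to 0.52 at 3X, 9 of them above 0 and 3 without overlap between the groups. Kng1 is also a plasma protein gene of the liver, is not among the 21, and was called. The part that RNA of liver cells had in the cerebellum signals of Hao2, Fbp1, Hsd3b2 and Kng1 was not tested. In the salivary gland list 1 of 14 genes was called higher, the kallikrein Klk1b22 (0.58 ± 0.10, adjusted p = 0.0159, probes not specific to it), and its mean signal was 3.80 to 3.85 in cerebellum, 3.64 to 3.77 in cortex and 3.88 to 3.96 in liver. No gene was called among 6 lung genes, where Napsa is also known, 9 adrenal, 12 intestinal, 11 pancreatic and 14 skeletal muscle genes. At an unadjusted p under 0.05 these had 0, 1, 1, 0 and 2, beside 8.6% of all probe sets. With 1.06% of all probe sets called in either direction, such short lists would mostly hold no call. This also holds for the list of 21 plasma protein genes.

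The choroid plexus, an epithelium inside the brain ventricles, was a further list. None of its 11 measured genes was called (1.06% of all probe sets in either direction). Of these, 2 had an unadjusted p under 0.05 (8.6% of all). Its defining gene Ttr differed between cerebellum and cortex by -1.27 ± 0.29 at 3X (adjusted p = 0.0900) and by -2.56 at 1X. The other gene, Calml4, differed by 0.31 ± 0.11 (adjusted p = 0.410) and by 0.41 at 1X. The mean signal of the list was 5.34 to 5.42 in cerebellum, 5.50 to 5.56 in cortex and 5.44 to 5.52 in liver at 3X. No kidney array was among the samples, and the part that RNA of kidney cells had in the cerebellum signals was not tested.

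**Figure D4:**
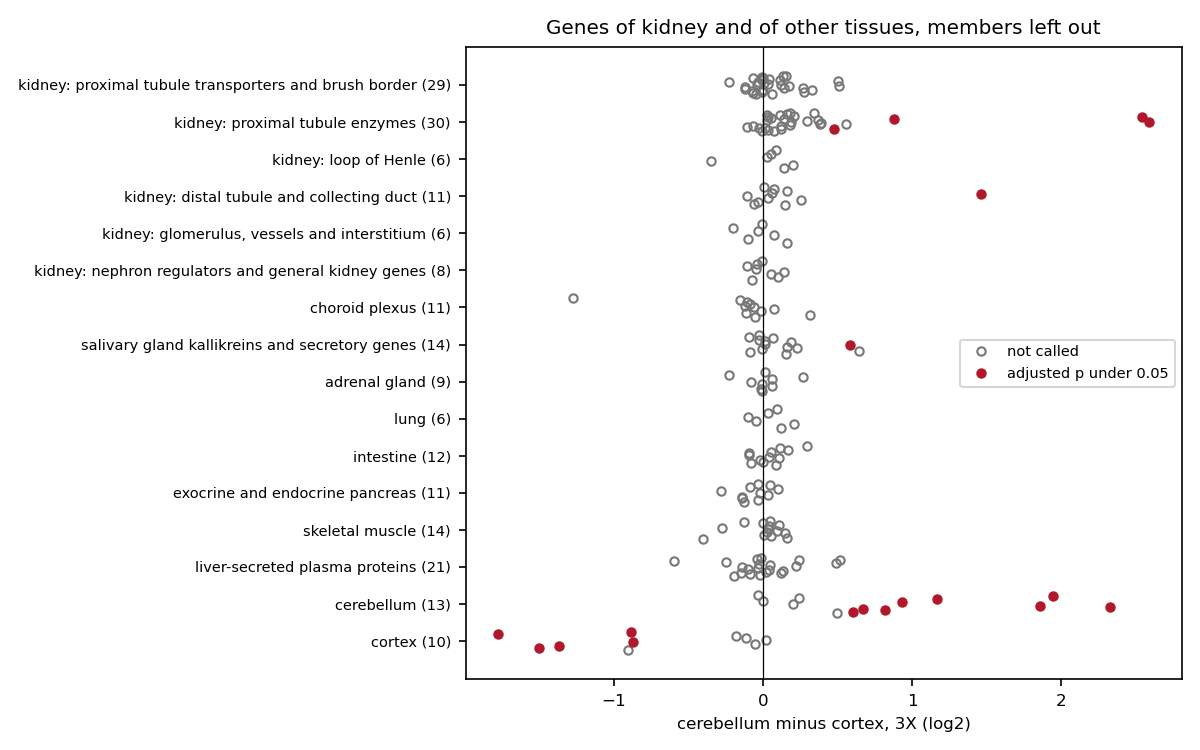
Difference between cerebellum and cortex at 3X (log2, horizontal) for the measured genes of each list (number in brackets), 1 point per gene; filled points passed an adjusted p under 0.05. Among the kidney lists, calls lie in the proximal tubule enzymes and, for Kng1, in the distal list, and none of the 21 plasma protein genes of that list, which leaves out Kng1, was called.

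Genes with a pattern like that of the 10 were sought by the root mean square difference between centred profiles of 6 group means (3 tissues at 3X and 1X) and the median profile of the 10 genes. That median profile stood at 0.46 in cerebellum, -0.30 in cortex and -0.21 in liver at 3X, and at 0.66, -0.57 and -0.59 at 1X. Among 6459 eligible probe sets the nearest genes were En2, a transcription factor of the hindbrain and cerebellum (0.14), and Clcn5, the endosomal chloride exchanger of the proximal tubule (0.14). They were followed by Sprr1b (0.19), Klk6 (0.19), Sh3bgr (0.20), Lrp2 (0.21), the cerebellar glutamate transporter gene Slc1a6 (0.22), the glycine receptor gene Glra1 (0.22), Dao (0.23), whose D-amino acid oxidase is known from kidney and cerebellum, and Sncg (0.24). The list therefore mixed genes known from kidney with genes known from cerebellum. Within the 10 genes, Umod was closest to the median profile (0.16) and Hao2 farthest (1.60).

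By a second measure, the smaller of the gaps at 3X and 1X between cerebellum and the next tissue, the leading other genes were Gabra6 (1.89), Septin4 (1.84), the granule lineage factor Zic1 (1.57), the myelin gene Mobp (1.57), the calcium buffer gene Pvalb (1.25), the neuronal factor Neurod1 (1.20), the myelin gene Mbp (0.98), Clic4 (0.87), the neurofilament gene Nefh (0.87) and Ank1 (0.79). Napsa, with a gap of 1.81, ranked 3 among all probe sets. Fxyd2 (0.75), Umod (0.72) and Kap (0.72) ranked 18, 20 and 22. Slc34a1 (0.61), Acsm2 (0.49), the first Klk1b5 probe set (0.44) and Miox (0.33) ranked 29, 36, 39 and 54. The brighter Klk1 probe set (0.09) ranked 160 and the dimmer (-0.13) 1242. The second Klk1b5 probe set (-0.51) ranked 9197 and Hao2 (-2.41) 12097. The gap uses arrays that had chosen the genes, so nothing is read from these ranks.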

How the data were processed

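The authors deposited RMA values from 12 MG_U74Av2 arrays, per the submitters' processing notes, read here as log2 signals. Neither the log base nor the RMA release is stated in the sources at hand. Base 2 was inferred because the highest value, 14.46, exceeds 11.09, the natural log of the top 16-bit reading. Of 12488 probe sets, 66 manufacturer controls were left out. In the platform annotation, 10833 of the 12422 kept had 1 symbol, 396 several and 1193 none, and only the first were named. All 10 genes were found in RefSeq under the same symbol.

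Tissue differences were fitted on the 9 3X arrays with limma 3.58.1 (R 4.3.3, two-sided moderated test), and the procedure on the 8 liver and cortex arrays as tissue plus procedure. P-values were Benjamini-Hochberg adjusted over 12422 probe sets and called under 0.05. A listed gene was read from its brightest probe set. The genes, lists and tests were chosen with earlier results of these data known. Named genes are the 10, up to 5 called per direction in each kidney list, up to 2 in other lists, the 10 nearest by profile (range at least 0.5) and the 10 with the largest gap. Slc12a1, Aqp2, Kcnj1, Ppp1r1a, Cdh16, Cubn, Slc26a1, Pdzk1ip1, Slc4a4, Alb, Ttr and Calml4 were chosen after their values were seen. So were the values of Lrp2 outside its profile and of Mbp and Neurod1 outside their gaps. Alternatives covered scaling, dim probe sets, probe sets with a suffix in their name, gene means, moderation, arrays in the fit and left-out arrays. Recovery was checked on simulated arrays (200 altered probe sets). The number of arrays limits the precision. A search of upstream sequences is not reported here.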

Additional observations from a re-analysis of the deposited data

Results flagged for a closer look

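In 5 probe sets every 3X cerebellum array lay below the 1X cerebellum array while every 3X array of another tissue lay above the 1X array of that tissue. The change with the procedure (3X minus 1X) in cerebellum minus that in liver was -2.95 for Kap (-2.65 in cerebellum and 0.30 in liver), -3.27 for Miox, -1.11 for Fxyd2, -1.47 for the brighter Klk1 probe set and -0.70 for the second Klk1b5 probe set. Against cortex it was -2.98 for Miox (-2.80 in cerebellum and 0.18 in cortex), -1.27 for the brighter Klk1 probe set and -0.72 for the second Klk1b5 probe set. These differences were not tested, because the cerebellum arrays had chosen the genes and each tissue had 1 array at 1X. The count of 5 covers only the probe sets of the chosen genes. The share of all probe sets with this pattern was not computed, so whether the count is unusual cannot be told. Over all probe sets the median change with the procedure in liver and cortex was 0.11. Since the 1X cerebellum array had a part in choosing the genes, nothing is read from the count.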

How the results depend on the processing

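The number of probe sets called between cerebellum and cortex at 3X was 132. It was 262 with only the arrays of the 2 tissues in the fit, and 82 to 250 when 1 array was left out, 250 without liver replicate 3, 82 without cerebellum replicate 2 and 86 without cerebellum replicate 3. The 5 kidney genes called higher became 2 among probe sets above the median level (Fbp1 and Kng1), 2 without Fbp1, Hsd3b2 and Kng1, an alternative chosen after seeing the data, and 4 to 7 when 1 array was left out. The single member probe set called between liver and cortex, Hao2, is too dim to stay among probe sets above the median level, where 0 of 3 were called, and the count was 1 to 1 when 1 array was left out. For the procedure in liver and cortex, 4 calls became 1 after quantile normalization, 0 of 3 among probe sets above the median level, and 2 to 3 when 1 array was left out; the cause was not tested. With the replicate number as a block, 170 probe sets, 5 kidney genes and 1 member probe set were called. Deviations of same-numbered arrays correlated at -0.10 to 0.34, and those of differently numbered arrays at -0.36 to 0.25. The arrays numbered 3 correlated at 0.34, 0.29 and 0.30, above every differently numbered pair. The main fit did not take the numbers as pairs, and what the arrays numbered 3 may share was not tested. The differences of the 12 member probe sets between cerebellum and cortex kept their sign in all 128 recomputations. These covered both other scalings, gene means and leaving out arrays. Since the same differences had chosen the genes, the kept sign is no independent check. Of the recomputations, 121 moved by less than the spread between 3X replicates. That spread was also the yardstick for the 28 at 1X, where no replicate was made. Among the scalings, the difference that moved further was Hao2 at 3X, 2.70 after quantile normalization against 1.97. Kap, Miox and Umod were the only member probe sets above the array median on all cortex arrays at 3X. Dim signals limit the others. Without a detection call, the cortex and liver signals of these 3 genes may also be background.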
